A study of Mus musculus with 2 samples.

Results

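Near-empty droplets are the droplets of a single-cell RNA-seq run whose barcode caught too few transcripts to be taken for a cell. They were chosen here by their measured depth alone: every barcode with at least 1 and fewer than 300 unique molecular identifiers (UMIs, the tags that count single transcripts), summed into 1 profile per library. They numbered 202922 of the 204118 barcodes with a UMI in the saline library (99.4%) and 437915 of 449347 in the cisplatin library (97.5%), 640837 of 653465 in all. Those sums held 4536535 UMIs (77.2% of the saline library) and 12554780 UMIs (62.8% of the cisplatin library).

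The study isolated renal lymphatic endothelial cells from male C57BL6/J mice aged 10 to 12 weeks, 72 h after saline or after cisplatin at 20 mg/kg. Per the labels, 5 mice gave 10 kidneys per condition, and the cells of a condition were pooled into a single library. Kidneys were digested, and cells were bound to magnetic beads through CD31 (encoded by Pecam1, an endothelial surface protein) and then through podoplanin (Pdpn, carried by lymphatic endothelium and by podocytes). There was 1 library per treatment, so no difference below has a replicate check, no test was run, and treatment cannot be told apart from mouse pool, dissociation or capture.

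When kidney tissue is dissociated, broken cells release RNA into the suspension, and droplets without a cell sample that fluid. The most abundant cells of the kidney cortex, those of the proximal tubule, reabsorb most of the filtered solutes and contain very many mitochondria. Cisplatin, a platinum drug that binds DNA, is taken up by these tubule cells and is a known cause of acute tubular injury. DNA damage is answered by p53, which switches on genes that halt the cell cycle or start cell death, and injured tubule cells are known to make Havcr1 (kidney injury molecule 1) and Lcn2 (lipocalin 2).

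The 2 sets of droplets differed in depth. Among droplets with at least 10 and fewer than 300 UMIs the median was 37 UMIs in saline and 135 in cisplatin, and the commonest value was 29 and 115. The middle 90% lay between 17 and 106 UMIs in saline and between 61 and 261 in cisplatin. The limit of 300 UMIs therefore stood far above the saline peak and on the shoulder of the cisplatin peak. Droplets with 1 to 100 UMIs supplied 3703779 UMIs in saline and 2140605 in cisplatin, and those with over 100 supplied 832756 and 10414175, so each comparison was repeated in the 2 windows. The libraries shared 22478 near-empty barcodes, which is 11.1% of the saline and 5.13% of the cisplatin set. Of the saline near-empty barcodes, 160 held at least 500 UMIs in the cisplatin library, and 72 barcodes did the opposite; leaving them out changed no count of genes by over 1.5 times.

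**Figure D1:**
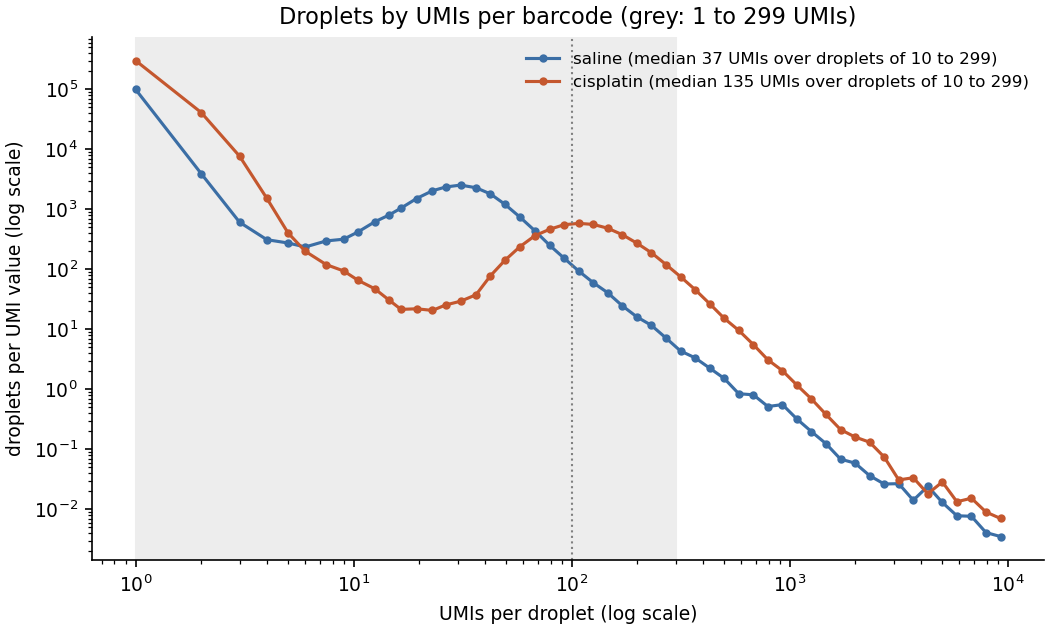
Number of droplets at each UMI total (both axes on a log scale) in the saline and cisplatin libraries, with the window below 300 UMIs in grey and the split at 100 UMIs dotted. The saline peak lies at 29 UMIs and the cisplatin peak at 115 UMIs.

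Droplets just inside and just outside the limit had like shares of mitochondrial RNA and of proximal tubule markers. In saline, mitochondrially encoded RNA was 3.29% of UMIs in droplets of 280 to under 300 UMIs and 4.26% in those of 300 to under 320, and the share of the 15 proximal tubule markers was 2.41% and 2.28%. In cisplatin, the mitochondrial share was 41.0% and 41.3%, and the tubule share was 1.59% and 1.52%. No break in content was seen at 300 UMIs in either library.

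As a share of UMIs, transcripts of mitochondria, tubule injury, p53 targets, metallothioneins and chemokines were higher in cisplatin near-empty droplets. The shares of Malat1, of endothelial markers, of heat shock genes and of long genes were lower. A lower share need not mean fewer UMIs, since the cisplatin sum is the larger. Blood endothelial markers gave 11911 UMIs in saline and 19519 in cisplatin, and heat shock genes 10140 and 13570. Malat1 fell in UMIs too, from 497774 to 319653. Over all 14218 genes with at least 20 UMIs in the 2 sums, 1726 (12.1%) were at least 1.5-fold higher in cisplatin with a counting interval clear of 1, and 3362 (23.6%) were lower by the same rule. The ratio compared is that of CPM (a gene's UMIs scaled to a common library total), cisplatin over saline. Its interval is the exact (Clopper-Pearson) conditional binomial 95% interval, given in parentheses below, and it covers counting error only. The median gene stood at a log2 ratio of -0.14, with quartiles of -0.61 and 0.31.

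That split between higher and lower genes depends on what the totals hold. With mitochondrial genes left out of the totals every log2 ratio shifts by 0.55, the median gene stands at 0.41, and 5176 genes (36.4%) are higher and 1045 (7.35%) lower. Counts on these mitochondria-free totals are given below beside those as reported where they differ widely. With Malat1 alone left out the counts are 1274 and 4195, with mitochondrial genes and Malat1 left out they are 4245 and 1373, and with ratios centred on the median gene they are 2363 and 2578. Of the genes called higher or lower, 33.9% were higher as reported, against 83.2%, 23.3%, 75.6% and 47.8% under those 4 scalings. A change of totals shifts every log2 ratio by the same amount, and none of these shifts reaches the 1.5-fold needed for a call. None of the 5088 called genes could therefore change direction under these totals, so this is no check on the calls. What follows is stated as reported, beside the median of all genes. The median log2 ratio of several lists changes sign with the totals. On mitochondria-free totals it turns from below to above 0 for the 3 proximal tubule lists and for cisplatin transport, thick ascending limb, intercalated cell (-0.22 to 0.32), gluconeogenesis (-0.03 to 0.51) and MHC class II genes (-0.18 to 0.37). Without Malat1 in the totals it turns from above to below 0 for collecting duct principal cells (0.08 to -0.05), glycolysis (0.06 to -0.07) and the cell cycle, where it was 0.10 as reported. That of MHC class I genes was at 0 as reported and lay between -0.13 and 0.55.

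**Figure D2:**
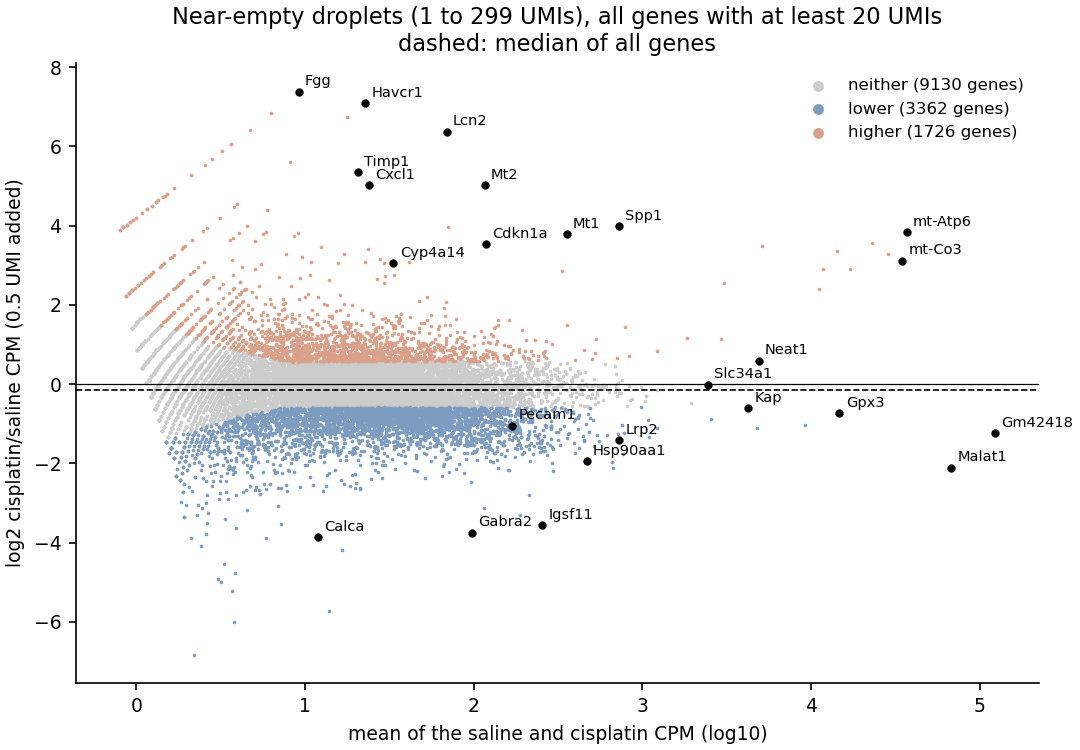
Log2 ratio of cisplatin to saline CPM (vertical) against the mean CPM of the 2 libraries (horizontal, log10) for 14218 genes in near-empty droplets; orange genes were called higher (1726), blue genes lower (3362). Havcr1, Lcn2 and Fgg lie at the top, the mitochondrial genes mt-Atp6 and mt-Co3 stand high among abundant genes, and Malat1 lies low among them.

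Mitochondrially encoded transcripts took a far larger part of the cisplatin than of the saline UMIs. The 13 protein genes of the mitochondrial genome, all subunits of the respiratory chain or of ATP synthase, took 3.86% of saline and 34.2% of cisplatin UMIs, a ratio of 8.86 (8.82 to 8.90). The ratio was 7.96 in droplets of 1 to 100 UMIs, and all 13 genes were called higher, against 12.1% of all genes. They did not move by the same amount. For mt-Atp6, an ATP synthase subunit, there were 21812 UMIs (4808 CPM) in saline and 864403 (68851 CPM) in cisplatin, 14.3-fold higher (14.1 to 14.5). For mt-Cytb, of respiratory complex III, the ratio was 11.8 (11.6 to 12.0), and for mt-Co1, of complex IV, it was 7.46 (7.35 to 7.58). The genes with the smallest ratios were mt-Nd6, the only protein gene that the light strand encodes, at 2.18 (2.01 to 2.37), mt-Nd4l at 2.22 (2.17 to 2.27) and mt-Atp8 at 2.25 (2.18 to 2.31). Adjacent genes thus differed: mt-Atp8 and mt-Atp6 share a transcript, and their CPM ratios were 2.25 and 14.3. These 2 genes overlap, as do mt-Nd4l and mt-Nd4, so the split of reads within each pair is uncertain. In droplets with at least 500 UMIs mt-Nd6, mt-Nd4l and mt-Atp8 also had the smallest ratios of the 13, from 3.78 to 4.75.

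The mitochondrial share also moved with depth inside the cisplatin library. It was 22.6% in droplets of 21 to 50 UMIs, 32.5% over 100 and up to 200, 39.3% over 200 and under 300 and 40.7% from 300 to under 500, then 23.8% at 500 or more. It was 53.4% in droplets of 1 to 10 UMIs. In saline it stayed between 3.64% and 5.05% over the 6 bins below 300 UMIs. Of droplets with at least 10 UMIs, 1213 in saline (1.26%) and 62308 in cisplatin (74.0%) held over 20% mitochondrial UMIs. Without those droplets the mitochondrial ratio was 5.77, and the counts of genes were 2648 higher and 1706 lower.

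**Figure D3:**
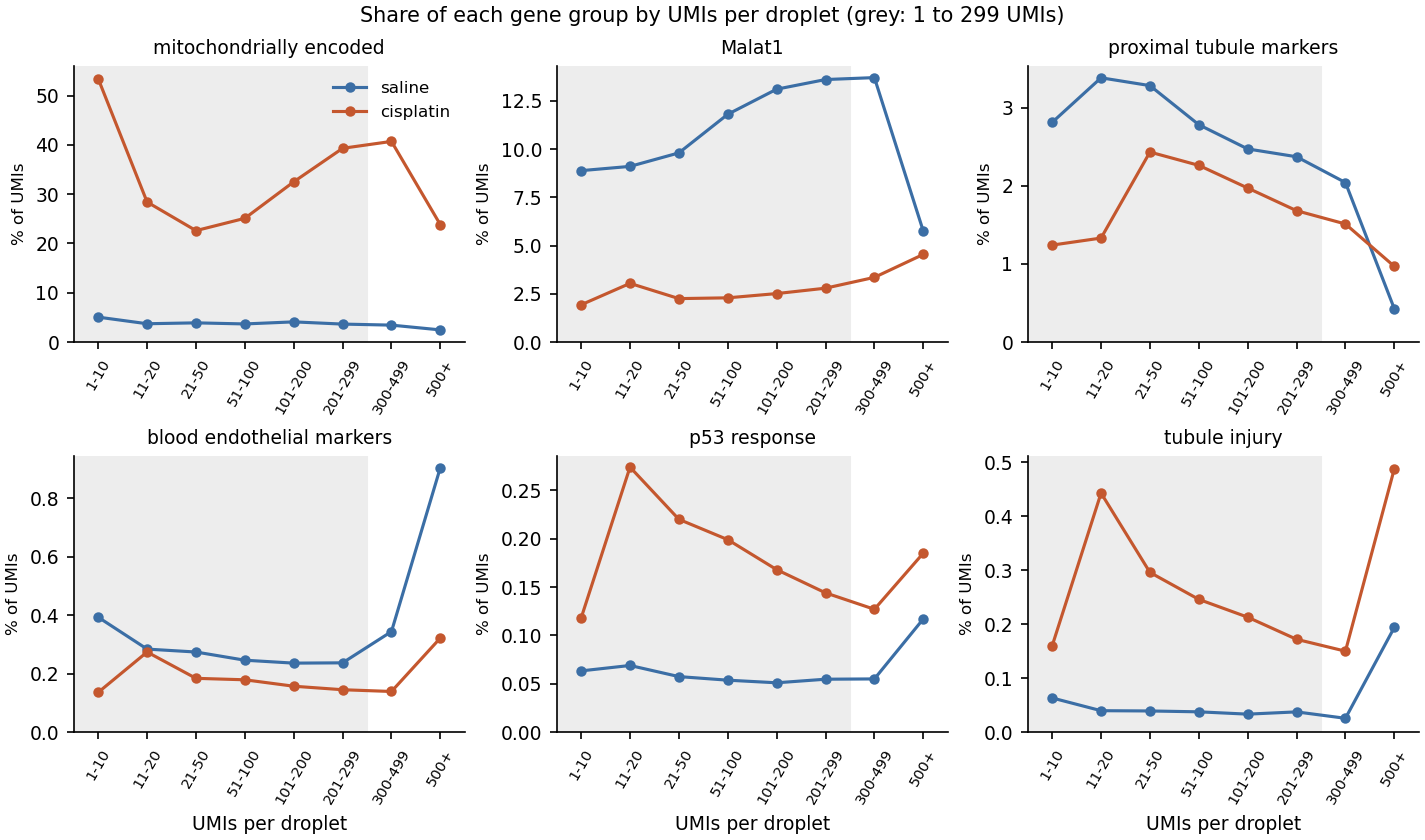
Share of UMIs (percent, vertical axes from 0, each panel on its own scale) taken by 6 gene groups in 8 bins of UMIs per droplet, for saline and cisplatin, with the bins below 300 UMIs in grey. The mitochondrial share in cisplatin climbs from 22.6% at 21 to 50 UMIs to 40.7% at 300 to under 500, while Malat1 is lower in cisplatin in every bin.

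Nuclear transcripts went the other way. Malat1, a long non-coding RNA kept in the nucleus, was the second most abundant gene in saline and the eighth in cisplatin. Its 497774 saline UMIs were 10.97% of the total and its 319653 cisplatin UMIs 2.55%, which gives a ratio of 0.232 (0.231 to 0.233). With the mitochondrial genes out of the totals the ratio was 0.339. Of the 5 nuclear long non-coding RNAs, 4 were lower, against 23.6% of all genes, with a median log2 ratio of -1.73. Kcnq1ot1, an imprinted antisense RNA, had a ratio of 0.301 (0.285 to 0.318) and Mir99ahg, a long host transcript of microRNAs, 0.221 (0.202 to 0.243). Neat1, the RNA around which nuclear paraspeckles form, stood apart from them with 3907 CPM in saline and 5893 CPM in cisplatin, 1.51-fold higher (1.48 to 1.53).

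The most abundant gene model in both libraries was Gm42418, which overlaps ribosomal RNA repeats. It took 17.4% of saline and 7.38% of cisplatin UMIs, a ratio of 0.424 (0.423 to 0.426), and Gm26917, a model of the same kind, had a ratio of 0.468 (0.461 to 0.475). The third, AY036118, stood at 0.770 and was not called. Whether these reads come from ribosomal RNA or from the models' own transcripts cannot be told from counts. Ribosomal protein mRNAs took 2.39% of saline and 2.54% of cisplatin UMIs. Of these, 77 of 80 were called in neither direction and 3 were higher, beside 12.1% higher and 23.6% lower of all genes. Among those 3 was Rps27l at 2.53 (2.23 to 2.87), which is also counted in the list of p53 targets below. On mitochondria-free totals 49 of the 80 were higher and none lower, beside 36.4% and 7.35% of all genes. The median log2 ratio of these 80 was 0.13, and it was -0.05 in droplets of over 100 UMIs.

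Transcripts of tubule injury were far more frequent in cisplatin near-empty droplets. The 14 genes of that list summed to 385 CPM in saline and 2036 CPM in cisplatin, 5.28-fold higher (5.03 to 5.55). Spp1 weighs most in that sum, with 388 of its 1748 saline UMIs and 17175 of its 25563 cisplatin UMIs. Of the 14, 12 were called higher and 1 lower, against 12.1% and 23.6% of all genes, with a median log2 ratio of 2.29 against -0.14. These genes were picked as known injury markers after earlier results of these libraries were known, so their direction is not independent of that choice.

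Havcr1 (chr11:46735080-46779578, GRCm38) is a receptor that lets injured tubule cells take up dead cells. Saline gave 1 UMI in 4536535 and cisplatin 569 in 12554780, a ratio of 206 (36.8 to 8135), with the wide interval set by the lone saline UMI. For Lcn2, an iron-carrier protein released by the damaged nephron, there were 7 UMIs (1.54 CPM) and 1723 UMIs (137 CPM), a ratio of 88.9 (43.1 to 222). Spp1, which encodes the secreted matrix protein osteopontin, ranked 1742nd in saline and 24th in cisplatin, with 388 UMIs (85.5 CPM) and 17175 UMIs (1368 CPM), 16.0-fold higher (14.5 to 17.7).

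Timp1, an inhibitor of matrix proteases, gave 4 and 508 UMIs, a ratio of 45.9 (17.8 to 169). Krt20, a keratin, had a ratio of 72.6 (12.9 to 2883) that rests on 1 saline UMI. Clu, the chaperone clusterin, gave 330 and 2575 UMIs, a ratio of 2.82 (2.51 to 3.17). The keratins Krt8 and Krt18 of simple epithelia were 3.02-fold (2.39 to 3.85) and 2.87-fold (2.10 to 4.03) higher, and Sox9, a transcription factor of repairing tubule cells, went from 4 to 96 UMIs, a ratio of 8.67 (3.28 to 32.5). The lower member was Vim, the filament protein vimentin, which endothelial and stromal cells also make, with 138 CPM in saline and 50.5 CPM in cisplatin, a ratio of 0.365 (0.326 to 0.408). Cp, ceruloplasmin, was called in neither direction at 1.30 (1.13 to 1.51).

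Metallothioneins, small proteins that bind zinc, copper and platinum, are encoded by neighbouring genes on chromosome 8. Mt1 (chr8:94179082-94180327, GRCm38) gave 218 UMIs (48.1 CPM) in saline and 8329 UMIs (663 CPM) in cisplatin, 13.8-fold higher (12.1 to 15.9). Mt2 (chr8:94172664-94173568, GRCm38) gave 31 UMIs (6.83 CPM) and 2835 UMIs (226 CPM), 33.1-fold higher (23.2 to 48.7). The ratios were 15.1 and 37.2 in droplets of 1 to 100 UMIs and 14.2 and 36.4 in those of over 100, so both windows gave the same order. The 250 bases before the RefSeq start of each gene are shown. That start differs from the one in the coordinates above: the Mt1 stretch ends inside them and the Mt2 stretch ends short of them. The stretches are given because the pair moved together and because their transcription is known to be driven through metal response elements. RefSeq sequence of GRCm38.p6 was used, on the plus strand, for chr8:94178839-94179088 (Mt1) and chr8:94172368-94172617 (Mt2). Capitals mark the core of the element, searched as TGCACNC and TGCGCNC on both strands:
Mt1: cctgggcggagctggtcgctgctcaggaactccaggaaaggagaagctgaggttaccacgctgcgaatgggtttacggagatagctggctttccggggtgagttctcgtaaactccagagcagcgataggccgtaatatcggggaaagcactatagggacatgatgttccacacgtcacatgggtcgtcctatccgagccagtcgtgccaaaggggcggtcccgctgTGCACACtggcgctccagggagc
Mt2: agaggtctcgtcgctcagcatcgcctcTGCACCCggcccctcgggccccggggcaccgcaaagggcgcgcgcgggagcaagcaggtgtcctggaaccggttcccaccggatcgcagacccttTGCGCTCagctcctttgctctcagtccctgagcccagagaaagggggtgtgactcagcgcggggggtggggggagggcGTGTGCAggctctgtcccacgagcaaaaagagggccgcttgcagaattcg
The Mt1 stretch holds 1 core and the Mt2 stretch 3, of which 1 lies on the other strand. Of 32851 RefSeq promoters of that length, 21.4% hold at least 1 core and 1.26% hold at least 3. With the 50 bases after the start added, the counts are 3 and 4, and 1.97% and 0.517% of promoters hold as many. A match is a description of letters and not a shown binding site.

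Targets of p53 were higher nearly throughout. Of 23 members, 21 were called higher and none lower, against 12.1% of all genes, with a median log2 ratio of 1.61. Together they went from 559 CPM in saline to 1634 CPM in cisplatin, 2.92-fold higher (2.80 to 3.05). Cdkn1a (chr17:29090976-29100727, GRCm38), the cyclin-dependent kinase inhibitor p21, gave 84 UMIs (18.5 CPM) and 2723 UMIs (217 CPM), 11.7-fold higher (9.43 to 14.7).

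Mdm2, the ligase that marks p53 for destruction, was 3.06-fold higher (2.74 to 3.42). Among genes of cell death, Bbc3 was 6.40-fold (3.93 to 11.1), Bax 2.03-fold (1.78 to 2.33) and Fas 2.07-fold (1.73 to 2.48) higher. Gdf15, a secreted stress cytokine, gave 35 and 649 UMIs, a ratio of 6.70 (4.77 to 9.71), and Phlda3, an inhibitor of Akt signalling, 38 and 629, a ratio of 5.98 (4.31 to 8.53). Eda2r, a death-receptor family member on the X chromosome, gave 0 UMIs in saline and 118 in cisplatin. Against a floor of 3 UMIs in the library it was 14.2-fold higher, with a lower interval bound of 11.4. Members called in neither direction were Sesn2 (1.02) and Ei24 (1.35).

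Deep droplets gave other values for some of these genes. At 500 or more UMIs the Cdkn1a ratio was 2.17 (1.84 to 2.56), the Bax ratio 1.0, and the Btg2 ratio 1.10, against 4.64 (3.72 to 5.86) for Btg2 in near-empty droplets. The saline level of Cdkn1a differed between the compartments: 165 UMIs among 1128351 in the deep droplets against 84 among 4536535 in the near-empty ones. Psrc1, a spindle protein outside the lists, was among the 10 highest genes with a proper symbol. It gave 1 and 442 near-empty UMIs, a ratio of 160 (28.5 to 6322).

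Inflammatory transcripts were rare but mostly higher. Of 13 cytokine and complement genes, 10 were called higher and none lower, against 12.1% and 23.6% of all genes, with a median log2 ratio of 2.44. Cxcl1, a chemokine for neutrophils, went from 6 saline to 583 cisplatin UMIs, a ratio of 35.1 (16.0 to 96.1). Cxcl2 gave 2 and 145 UMIs, a ratio of 26.2 (7.12 to 218), and Ccl2, a chemokine for monocytes, 2 and 89, a ratio of 16.1 (4.32 to 135). Ccl7 gave 0 and 71 UMIs, 8.55-fold higher against the floor of 3 UMIs, with a lower interval bound of 6.78. Socs3, a feedback inhibitor of cytokine signalling, gave 9 and 287 UMIs, a ratio of 11.5 (5.99 to 25.5). C3, the central complement protein, was 2.90-fold higher (2.21 to 3.87). Tnf, with 6 and 14 UMIs, Cfb and Nfkbia were called in neither direction. Lif, a cytokine of the interleukin 6 family, and Fgg, a fibrinogen chain, belonged to the 10 highest genes once gene models without a proper symbol were left out. Lif gave 0 and 159 UMIs and Fgg 0 and 231. Against the floor of 3 UMIs they were 19.2-fold and 27.8-fold higher, with lower interval bounds of 15.39 and 22.45.

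Antioxidant genes under NRF2 were higher in 9 of 14 cases and lower in none, against 12.1% and 23.6% of all genes, with a median log2 ratio of 0.79. Srxn1, which repairs peroxiredoxins, was 2.82-fold higher (2.10 to 3.85), Nqo1, a quinone reductase, 2.31-fold (1.70 to 3.19) and Hmox1, which breaks down haem, 2.12-fold (1.33 to 3.54). Gclc, the catalytic subunit of the enzyme that starts glutathione synthesis, was 1.96-fold higher (1.78 to 2.16), while its partner Gclm stood at 1.02. The glutathione peroxidases Gpx1 (0.976) and Gpx4 (1.16) were called in neither direction.

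Heat shock genes went down as a group and immediate early genes went up. Of 10 heat shock genes 7 were lower and none higher, against 23.6% of all genes (4 of 10 against 7.35% on mitochondria-free totals), with a median log2 ratio of -1.10. Hsp90aa1, the inducible HSP90 chaperone, had 742 CPM in saline and 192 CPM in cisplatin, a ratio of 0.259 (0.246 to 0.273). Dnaja1, a co-chaperone, stood at 0.412 (0.383 to 0.444). Of 13 immediate early genes 8 were higher, against 12.1% of all genes, with a median log2 ratio of 0.69. Fos gave 67 and 470 UMIs, a ratio of 2.54 (1.96 to 3.33), Egr1 stood at 2.02 (1.72 to 2.38), and Jun, the partner of Fos, at 1.01. Both lists are known to respond to tissue digestion, whose part in these values was not tested. In droplets of 500 or more UMIs the medians were -1.49 for heat shock and -0.43 for immediate early genes.

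**Figure D4:**
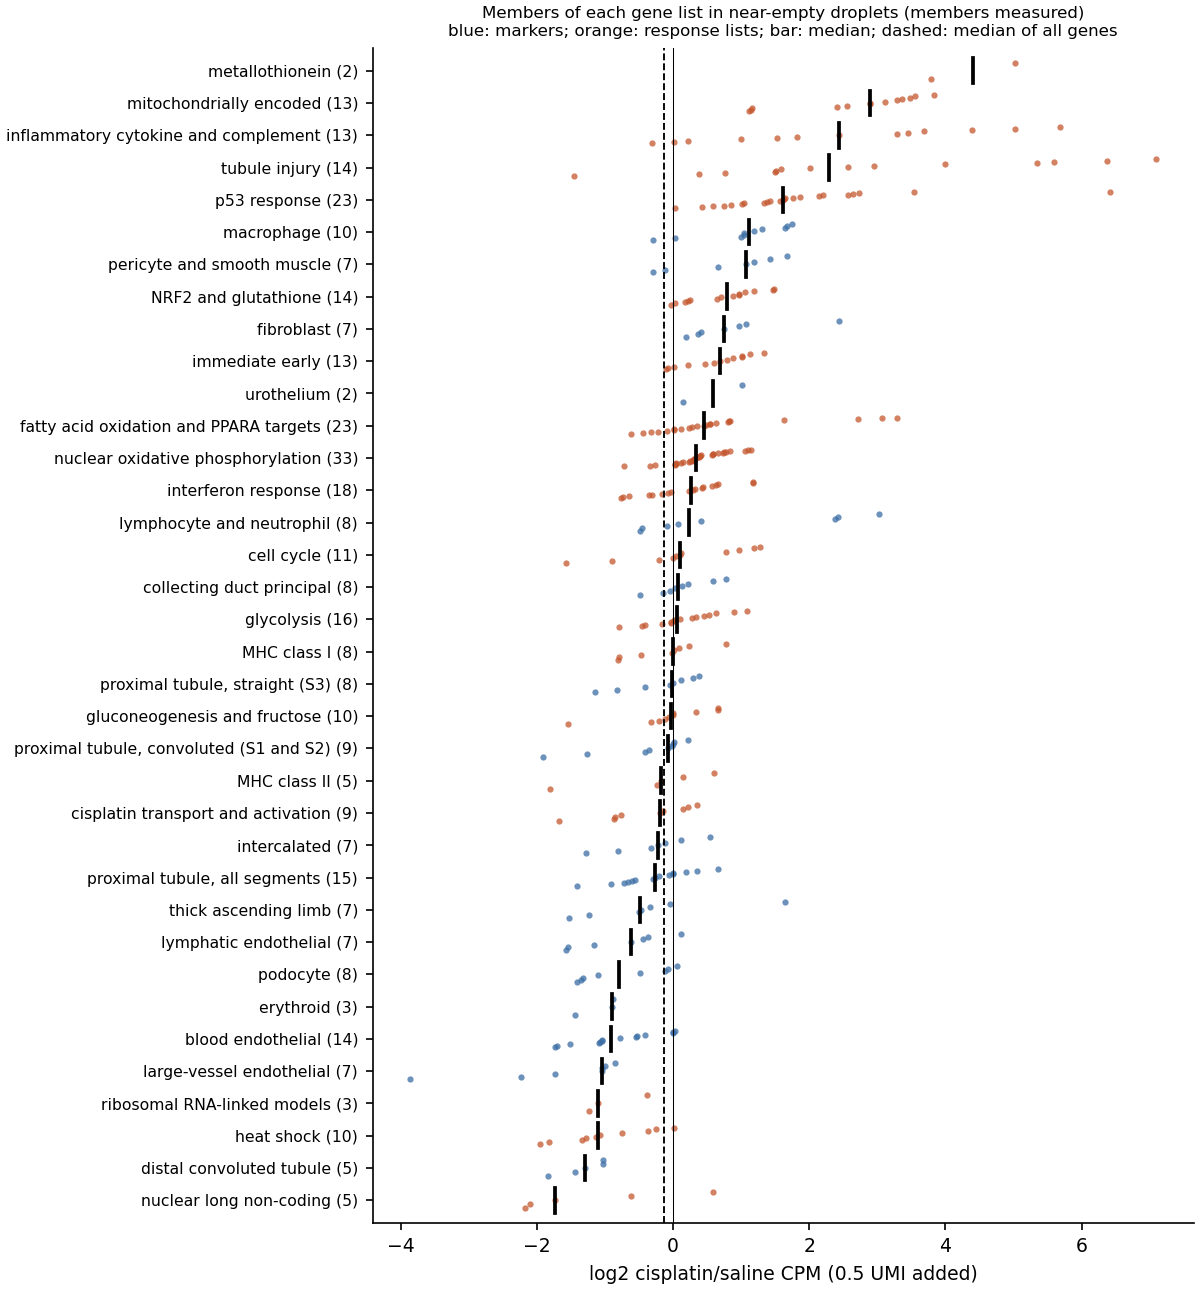
Log2 ratio of cisplatin to saline CPM for each measured member of 36 gene lists in near-empty droplets (points), with the list's median (bar), lists in order of their median and the median of all genes dashed. Metallothionein, mitochondrial, cytokine, injury and p53 lists lie farthest to the right, and nuclear long non-coding, distal convoluted tubule and heat shock lists farthest to the left.

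Markers of the nephron were read segment by segment. The 15 general proximal tubule markers took 2.97% of saline near-empty UMIs and 1.89% of cisplatin ones, a ratio of 0.638 (0.633 to 0.642). That sum is led by Gpx3, the secreted glutathione peroxidase made by tubule cells, with 18376 and 11101 CPM and a ratio of 0.604 (0.599 to 0.609), and by Kap, an androgen-regulated kidney protein, with 5105 and 3373 CPM and a ratio of 0.661 (0.650 to 0.672). Gene by gene, 5 of 15 were lower, 1 was higher and 9 passed in neither direction, beside 23.6% lower and 12.1% higher of all genes. Their median log2 ratio was -0.26, beside -0.14 for all genes.

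This direction depends on the totals: without mitochondrial genes the median is 0.29. On those totals 3 members are higher and 1 lower, beside 36.4% and 7.35% of all genes. Fewer cells of a type and less RNA per cell cannot be told apart in such sums. Lrp2, the endocytic receptor megalin, was lowest of the 15, at 1056 and 398 CPM and a ratio of 0.377 (0.363 to 0.393), and it was the member that was lower under every total. Pck1, a gluconeogenic enzyme, was the higher one, at 155 and 246 CPM and a ratio of 1.59 (1.46 to 1.73). The phosphate transporter Slc34a1, an early-segment marker with 2445 and 2432 CPM, stood at 0.995 and the glucose transporter Slc5a2 at 1.01.

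Among convoluted-segment markers Slc5a12, a lactate transporter, was lower at 0.266 (0.237 to 0.297) and Slc4a4, the basolateral bicarbonate exporter, at 0.415 (0.392 to 0.439), with the other 7 of 9 in neither direction. These 2 of 9 are a share near the 23.6% of all genes that were lower. Among markers of the straight segment, where cisplatin injury is known to be strongest, Slc7a13, an amino acid transporter, was lower at 0.452 (0.423 to 0.483) and Slc22a7, an organic anion transporter, at 0.566 (0.495 to 0.648), with 6 of 8 in neither direction, so 2 of 8 again lie near the share of all genes. The list medians were -0.07 and -0.02, and they were 0.48 and 0.53 with mitochondrial genes out of the totals. Over all near-empty droplets the straight segment did not stand below the convoluted one. Both medians were -0.08 in droplets of 1 to 100 UMIs. In those of over 100 UMIs the straight segment was the lower, at -0.17 against -0.03.

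Of the distal segments, the distal convoluted tubule was lower in every marker measured. All 5 were lower, against 23.6% of all genes (3 of 5 on mitochondria-free totals, against 7.35%), with a median log2 ratio of -1.29 that stayed between -1.42 and -0.75 over all settings tried. Slc12a3, the thiazide-sensitive salt transporter, had 764 and 312 CPM, a ratio of 0.408 (0.390 to 0.427). In the thick ascending limb 2 of 7 markers were lower, 1 higher and 4 neither, near the shares of all genes. Egf, whose precursor is made there, was lower at 0.348 (0.321 to 0.377) and the salt transporter Slc12a1 at 0.426 (0.410 to 0.443). Umod (uromodulin), the most abundant protein of normal urine, stood at 0.970, and Cldn16, a tight-junction protein with 5 and 47 UMIs, was higher. The ascending limb median was -0.48, and 0.07 without mitochondrial genes in the totals. Collecting duct principal cell markers had 2 of 8 higher and none lower, beside 12.1% and 23.6% of all genes: Aqp3, a water channel, at 1.51 (1.11 to 2.10) and Fxyd4, a regulator of the sodium pump, at 1.72 (1.43 to 2.08). Intercalated cell markers had 2 of 7 lower, a share near the 23.6% of all genes, with Slc26a4 at 0.412 (0.355 to 0.479) and Slc4a1 at 0.570 (0.447 to 0.729). Podocyte markers had 4 of 8 lower and none higher, against 23.6% and 12.1% of all genes. On mitochondria-free totals 3 of 8 were lower and 1 higher, against 7.35% and 36.4%. Nphs1 (nephrin) stood at 0.390 (0.330 to 0.461), Synpo at 0.948 and Wt1 at 0.713.

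Genes that carry or activate cisplatin were present in the near-empty RNA. Of the 9 with enough UMIs, 4 were lower and none higher, against 23.6% and 12.1% of all genes. They were the uptake transporter Slc22a2 at 0.550 (0.466 to 0.650), the copper transporter Slc31a1 at 0.556 (0.480 to 0.645), the efflux pump Abcc2 at 0.591 (0.557 to 0.627) and the copper pump Atp7a at 0.314 (0.235 to 0.419). Ggt1 and Dpep1, enzymes that process cisplatin conjugates, stood at 0.903 and 1.16. The list median was -0.19, and 0.36 with mitochondrial genes out of the totals. On those totals 3 were higher and 1, Atp7a, was lower, beside 36.4% and 7.35% of all genes.

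Fat and sugar metabolism split by gene. Of 23 genes of fatty acid oxidation and of PPARA, the receptor that drives it, 8 were higher and 1 lower, against 12.1% and 23.6% of all genes, with a median log2 ratio of 0.46. On mitochondria-free totals 16 were higher and none lower, against 36.4% and 7.35%. The high ones included inducible PPARA targets: Cyp4a14, a fatty acid hydroxylase, at 8.48 (5.96 to 12.5), Pdk4, which restrains pyruvate use, at 6.96 (3.44 to 16.4) and Cyp4a10 at 3.08 (2.74 to 3.48). Ppara itself was lower at 0.654 (0.524 to 0.819). The entry step Cpt1a (0.80) and the dehydrogenase Acadm (0.857) were called in neither direction. In gluconeogenesis G6pc, the enzyme that frees glucose, was lower at 0.344 (0.312 to 0.38), opposite to Pck1. Of 16 glycolysis genes, 3 were higher and 1 lower, against 12.1% and 23.6% of all genes. On mitochondria-free totals 8 were higher and none lower, against 36.4% and 7.35%. Gapdh stood at 2.12 (1.96 to 2.29), and Ldha was lower at 0.575 (0.537 to 0.615). Of 33 nuclear genes of oxidative phosphorylation 10 were higher and 1 lower, against 12.1% and 23.6% of all genes. On mitochondria-free totals 28 were higher and none lower, against 36.4% and 7.35%. Their median log2 ratio as reported was 0.34, beside 2.90 for the 13 mitochondrially encoded genes. Cox5a stood at 2.22 (1.93 to 2.57), Ndufa4 at 2.16 (1.97 to 2.36) and Atp5a1 at 1.02.

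Endothelial RNA, the target of the beads, was a small part of the near-empty profile. The 14 blood endothelial markers summed to 2626 CPM in saline and 1555 CPM in cisplatin, a ratio of 0.592 (0.579 to 0.606), with 8 of 14 lower and none higher, against 23.6% and 12.1% of all genes. On mitochondria-free totals 3 of 14 were lower, against 7.35%. The median log2 ratio was -0.91 and stayed below 0 in all 14 settings. Pecam1, the first bead target, gave 1031 UMIs (227 CPM) and 1383 UMIs (110 CPM), a ratio of 0.485 (0.447 to 0.526). Cldn5, a tight-junction protein, was lowest at 0.30 (0.272 to 0.330), and Ptprb, a phosphatase of the Tie2 receptor, stood at 0.306 (0.286 to 0.329). Plvap, Eng and Esam stood between 1.0 and 1.02, so the list did not move as 1 block.

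All 7 large-vessel markers were lower, from Calca, a peptide hormone gene, at 0.0673 (0.0389 to 0.111) to Eln (elastin) at 0.556 (0.490 to 0.632), against 23.6% of all genes. On mitochondria-free totals 3 of the 7 were lower, against 7.35%. Of 7 lymphatic markers 4 were lower and none higher as reported, against 23.6% and 12.1% of all genes. On mitochondria-free totals 1 of 7 was lower, against 7.35%. Prox1, the lymphatic master regulator, gave 55 and 51 UMIs, a ratio of 0.335 (0.224 to 0.50), and Pdpn, the second bead target, 58 and 105 UMIs, a ratio of 0.654 (0.470 to 0.918). The 7 lymphatic markers together were 61.5 CPM in saline and 36.5 CPM in cisplatin, a ratio of 0.593 (0.510 to 0.691), and each of the 7 was detected in both sums. Podoplanin is made by podocytes too, whose markers summed to 604 and 328 CPM.

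Immune and stromal transcripts were more frequent in cisplatin. Of 10 macrophage markers 8 were higher and none lower, against 12.1% and 23.6% of all genes, and their sum went from 155 to 309 CPM, 2.00-fold higher (1.84 to 2.17). C1qc, a chain of complement C1q, gave 37 and 349 UMIs, a ratio of 3.41 (2.43 to 4.92), and Tyrobp, a signalling adaptor, 31 and 278, a ratio of 3.24 (2.23 to 4.86). Adgre1 and Csf1r, defining surface receptors of macrophages, stood at 0.829 and 1.03. The neutrophil genes S100a8 and S100a9 gave 5 and 81 UMIs and 5 and 124 UMIs, ratios of 5.85 (2.41 to 18.5) and 8.96 (3.74 to 28.1). T cell genes were called in neither direction.

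Of 7 pericyte and smooth muscle markers 5 were higher, against 12.1% of all genes, with Rgs5 at 3.20 (2.47 to 4.21) and Acta2 (smooth muscle actin) at 2.70 (2.15 to 3.43), while the contractile myosin Myh11 stood at 0.922. Of 7 fibroblast markers 4 were higher, with Dcn (decorin) at 1.97 (1.59 to 2.46) and Col1a1 at 1.69 (1.44 to 1.99). The same marker lists were also higher in cisplatin droplets of 500 or more UMIs, with summed ratios of 13.1 for macrophages, 11.6 for pericytes and smooth muscle and 3.82 for fibroblasts. Several lists had shares near or below the 12.1% and 23.6% of all genes in both directions, or differed with the totals. Interferon response genes had 3 of 18 higher and 3 lower. On mitochondria-free totals, where 36.4% of all genes were higher and 7.35% lower, they had 10 higher and none lower. MHC class I genes had 1 of 8 higher and 2 lower, and 3 higher and none lower on those totals. MHC class II genes had 1 of 5 each way, and the 2 urothelial markers measured were called in neither direction. Cell cycle genes had 2 of 11 each way, and 6 higher and 1 lower on mitochondria-free totals. Pcna, the replication clamp that p53 also induces, stood at 1.97 (1.5 to 2.64) and Mki67 at 0.540 (0.399 to 0.733).

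The genes that were lowest in cisplatin were of another kind. With gene models without a proper symbol left out, the 10 lowest by the interval bound nearest 1 were Gabra2, Igsf11, Thsd7a, Mecom, Scaper, Calca, Ptprz1, Serpina9, Olfr374 and Halr1. Gabra2, a receptor subunit for the neurotransmitter GABA, gave 827 UMIs (182 CPM) in saline and 170 UMIs (13.5 CPM) in cisplatin, a ratio of 0.0743 (0.0626 to 0.0877). Igsf11, an adhesion protein, gave 2131 UMIs (470 CPM) and 498 UMIs (39.7 CPM), a ratio of 0.0844 (0.0764 to 0.0931). Thsd7a, a membrane protein known from podocytes, stood at 0.115 (0.101 to 0.131) and Mecom, a transcription factor of the distal nephron and endothelium, at 0.144 (0.131 to 0.157).

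Several of these genes are very long: the annotated span from first to last exon, introns included, is 138 kb for Gabra2, 134 kb for Igsf11, 438 kb for Thsd7a, 597 kb for Mecom and 388 kb for Scaper. Ptprz1 spans 177 kb. Others are short, with 4.88 kb for Calca, 10.7 kb for Halr1, 11.2 kb for Olfr374 and 19.0 kb for Serpina9. Ratios of the long genes at 500 or more UMIs differed. Gabra2 stood at 1.20 (0.550 to 2.97), from 8 saline and 38 cisplatin UMIs, and Ptprz1 at 0.588, from 3 and 7 UMIs. Scaper stood at 0.789, Igsf11 at 0.451, Thsd7a at 0.313 and Mecom at 0.284.

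Over the whole table the ratio fell with gene span. The 13212 protein-coding genes measured were cut into 5 groups of equal size by span. From the shortest group (up to 8.43 kb) to the longest (72.1 kb and more) the median log2 ratio was 0.19, 0.03, -0.06, -0.26 and -0.61. The share of genes called lower went from 9.5% to 49.1% and the share called higher from 22.0% to 3.18%. The order was the same in droplets of 1 to 100 UMIs (0.32 to -0.56) and of over 100 UMIs (0.22 to -0.69). In droplets with at least 500 UMIs the 5 medians lay between -0.16 and -0.02. A change of totals moves all 5 groups by the same amount and leaves the 0.80 between the ends as it is.

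Span moved with several of the lists above, and its part in them was not tested. Lrp2 spans 162 kb, Slc4a4 353 kb, Ptprb 114 kb and Slc12a1 77.5 kb, whereas Mt1 spans 1.25 kb, Lcn2 3.62 kb and Gdf15 3.06 kb. Set against the median of genes in their own span group, list medians became -0.46 for blood endothelial, -0.51 for podocyte, -1.03 for distal convoluted tubule, -0.23 for general proximal tubule and -1.29 for heat shock markers. On that footing they became 2.18 for tubule injury, 1.45 for p53 response, 0.74 for NRF2 and 1.06 for macrophage genes. Injury, p53, metallothionein and heat shock lists thus kept their side of the median gene of like span, and the blood endothelial median moved closer to it. Havcr1 spans 44.5 kb, so not every gene that was higher is short. Nor was every lower gene long: Cldn5 spans 1.42 kb, Calca 4.88 kb, G6pc 10.3 kb and Hsp90aa1 12.1 kb.

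**Figure D5:**
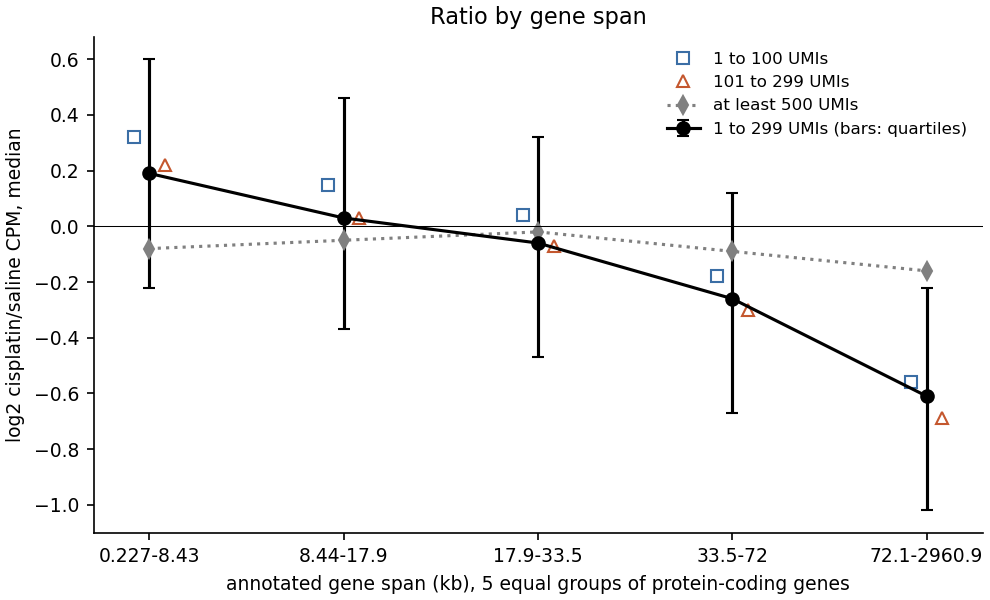
Median log2 ratio of cisplatin to saline CPM in 5 groups of protein-coding genes by annotated span in kb (black, bars from the lower to the upper quartile of genes), with the same medians for droplets of 1 to 100, over 100 (under 300) and at least 500 UMIs. Near-empty medians go from 0.19 for the shortest to -0.61 for the longest genes, while those of deep droplets stay between -0.16 and -0.02.

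How far a list's share of UMIs varied from droplet to droplet was described by its squared coefficient of variation (CV) beyond that of random draws at each droplet's depth. It is 0 for an even mixture and, unlike a variance ratio, does not grow with a list's abundance. It was read for lists with about 1 UMI or more per droplet, since it is unsteady for rarer ones. In saline droplets of 20 to 100 UMIs it was 0.962 for mitochondrial transcripts, 0.394 for ribosomal protein mRNA and 0.0909 for Malat1. For proximal tubule markers it was 0.065, and for the ribosomal RNA-linked models such as Gm42418 it was 0.0408. In cisplatin droplets of that depth the same lists, in that order, gave 0.17, 0.141, 0.198, 0.0725 and 0.14. Of these lists the ribosomal RNA-linked models had the lowest value in saline and proximal tubule markers the lowest in cisplatin. The relative spread of mitochondrial transcripts was smaller in cisplatin than in saline.

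In droplets of over 100 UMIs the mitochondrial value was 3.02 in saline and 0.201 in cisplatin, and that of proximal tubule markers 0.151 and 0.105. That of the ribosomal RNA-linked models was 0.097 and 0.224. Single cisplatin droplets of that depth ranged from 11.9% (5th percentile) through 32.2% (median) to 61.2% (95th percentile) mitochondrial UMIs. Injury and p53 transcripts averaged 0.335 and 0.269 UMIs in such a cisplatin droplet and 0.0528 and 0.0797 in a saline one, below the level at which the measure was read. In cisplatin droplets of 20 to 100 UMIs 24 of the 54 haemoglobin UMIs lay in 1 droplet.

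Near-empty and deep droplets of the same library differed in proximal tubule, endothelial and ribosomal transcripts. Proximal tubule markers were 6.98 times as frequent in near-empty as in deep droplets (500 UMIs or more) in saline and 1.96 times in cisplatin. Blood endothelial markers were 3.45 times as frequent in deep droplets in saline and 2.07 times in cisplatin, and ribosomal protein mRNA 5.63 and 2.43 times. The near-empty profile was thus the richer in proximal tubule markers and the poorer in blood endothelial markers in both libraries. The 2 compartments lay closer together in cisplatin for these 3 lists. Not every tubule list was richer: collecting duct principal cell markers were 0.657 times as frequent in near-empty as in deep droplets in saline and 0.627 times in cisplatin. Between treatments, proximal tubule markers had a summed ratio of 0.638 in near-empty and 2.27 in deep droplets. Gpx3 stood at 0.604 and 2.15 and Kap at 0.661 and 2.05, with intervals on opposite sides of 1. Metallothionein, injury and p53 sums were higher in cisplatin in both compartments, at 16.2, 5.28 and 2.92 in near-empty and 50.1, 2.51 and 1.58 in deep droplets. With 1 library per treatment these differences between compartments were not tested.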

How the data were processed

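The 2 libraries (1 saline, 1 cisplatin) were described from raw UMI counts per gene and barcode, which the authors deposited as unfiltered matrices of whole numbers for 32285 genes. Cell Ranger 6.0.1 and the mm10 build are named per the submitters' processing notes, whereas the matrices carry a mark of version 4 per the file headers. This difference is not resolved here. Barcodes with at least 1 and fewer than 300 UMIs were summed per library without any correction for free RNA, doublets or cells. CPM were computed over all genes, ratios with exact (Clopper-Pearson) conditional binomial 95% intervals for genes with at least 20 UMIs over both sums, and log2 ratios with 0.5 UMI added. A gene was called at a ratio of at least 1.5 either way with its interval clear of 1. A gene at 0 UMIs was set at a floor of 3 UMIs in its library. No p-value is given, since 1 library per group leaves no replicate. Intervals cover counting error only.

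The genes named by rule were the 10 highest and 10 lowest by the interval bound nearest 1 (gene models without a proper symbol left out), up to 4 members of each of 37 lists farthest from 1 by that bound, 9 fixed genes, and the 10 most abundant genes of each library. Other genes named were list members chosen after their values were seen. The droplets, the lists and the markers were all chosen with earlier results of these data known. Coordinates and spans came from GENCODE M21 (GRCm38), matched by gene identifier, and promoters from RefSeq (GRCm38.p6). Alternatives were UMI windows, totals, minimum counts, fold, thinning of the sums to the smaller library's total, shared barcodes and mitochondria-rich droplets. The ratio code was tested on simulated counts. Computation used Python with NumPy, pandas and SciPy.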

Additional observations from a re-analysis of the deposited data

Results flagged for a closer look

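A pair of lists went past 1.5-fold one way in near-empty droplets and the other way in droplets with at least 500 UMIs. Erythroid markers had a median log2 ratio of -0.89 in near-empty and 4.56 in deep droplets. In near-empty droplets this rests on few counts: Hba-a2 gave 67 UMIs in saline and 68 in cisplatin, and Hbb-bs 46 and 69. The ribosomal RNA-linked models had a median log2 ratio of -1.1 in near-empty and 0.99 in deep droplets, where Gm42418 stood at 1.98 against 0.424. The difference between the compartments was not tested, since each holds 1 library per treatment. The limit of 500 UMIs also lies nearer the near-empty peak of the cisplatin library than that of the saline library.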

How the results depend on the processing

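There were 14 planned and 2 added settings, the added ones chosen after seeing the data. No called gene could change direction with the totals, whose shifts were smaller than the fold of a call. The mitochondrial ratio of 8.86 became 7.96 (1 to 100 UMIs), 8.77 (10 to under 300), 9.23 (1 to under 500), 8.10 (totals without Malat1), 5.77 (without droplets over 20% mitochondrial) and 8.71 (0.5 to 2 times the library's median depth, an added setting). The Malat1 ratio of 0.232 became 0.212 (1 to 100 UMIs), 0.197 (over 100), 0.243 (1 to under 500), 0.339 (totals without mitochondrial genes), 0.321 (without droplets over 20% mitochondrial) and 0.248 (0.5 to 2 times the median). Genes higher and lower, 1726 and 3362 as reported, numbered 5176 and 1045 without mitochondrial genes in the totals, 4245 and 1373 without these and Malat1, 3131 and 1947 without these and the ribosomal RNA-linked models (added), 863 and 1601 at a fold of 2, and 2648 and 1706 without droplets over 20% mitochondrial. For totals and the fold the cause lies in the construction. Leaving out droplets over 20% mitochondrial selects on the mitochondrial share itself, so a lower share in each library follows by construction. For the other changes the cause was not tested. The erythroid median (-0.89) reversed to 0.49, Hbb-bs to 1.73 and Hba-a1 to 1.40 at 1 to 100 UMIs. Dpt (6.69) reversed to 0.773 and Cd79a (7.59) to 0.453 at over 100, where saline gave 0 UMIs and the floor of 3 set the value. Depth limits genes under about 20 UMIs.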

Other observations

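The saline library listed exactly 100000 barcodes with a single UMI, against 302409 in the cisplatin library, and 3936 against 41108 barcodes with 2 UMIs. Whether the saline list of single-UMI barcodes is complete cannot be told from the counts. The numbers and shares of near-empty and shared barcodes given above rest on it. Barcodes with so few UMIs add little to the sums: droplets of 1 to 10 UMIs held 124822 UMIs in saline and 420370 in cisplatin.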
